A study of Homo sapiens with 9 samples.

Results

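In MP41 cells, a uveal melanoma (UM) line with a GNA11 mutation, 104 genes had lower RNA levels late after transfection of the control mimic miR-CTR and stayed near their starting level when synthetic miR-16 was transfected instead. The values are the log2 of normalized reads plus 1 that the authors deposited for 14839 genes, and all differences below are on this log2 scale. The genes were chosen by 3 values: at least 7 at 0 h, a mean of the 24 and 48 h miR-CTR libraries at least 0.6 below the 0 h value, and a mean of the 24 and 48 h miR-16 libraries within 0.25 of the 0 h value. Of the 11137 genes with at least 7 at 0 h, 574 (5.15%) met the condition on miR-CTR, and the 104 genes were 18.1% of these. The remaining 470 lay outside the band with miR-16, 460 below it and 10 above it. The fall with miR-CTR, the level with miR-16 and the difference between both at 24 and 48 h were thus fixed by the choice and are given as a description only.

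The study followed the RNA of MP41 cells before transfection (0 h) and at 6, 12, 24 and 48 h after 66 nM of either mimic, by sequencing of polyA RNA. Of the 9 libraries, 4 came from miR-16 cells and 5 carry the miR-CTR label, the 0 h library among them although it was collected before any mimic was added, and each condition has 1 library. With 1 library per mimic at each time no test was run at a single time, and none was run over the times as pairs, since the 24 and 48 h values chose the genes. The error given is the counting standard error (SE), which covers the sampling of reads and not the variation between cultures. MP41 is 1 cell line, so nothing here speaks of other UM cells, and in these bulk samples fewer cells of a kind and less RNA per cell cannot be told apart. The reads recovered from the values came to between 20260000 and 27360000 per library. All 8 melanocyte lineage markers were measured, from 11.64 (GPR143) to 17.88 (TYRP1) at 0 h, and of the 12 markers of T cells, macrophages, endothelium and epithelium CD68 alone was listed, at 5.48.

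A microRNA guides a silencing complex to mRNAs, mostly through pairing between its seed (bases 2 to 8) and the 3′UTR, and the paired mRNA is then degraded or translated less. A synthetic mimic loads the same complex, and a control mimic is a small RNA that carries a seed of its own. Both mimic sequences are shown because their seeds define the sites counted below, with the seed in capitals. The miR-16 sequence is that of RefSeq hsa-miR-16-5p, made from MIR16-1 (GRCh38, chr13:50049027-50049048, reverse strand) and MIR16-2 (chr3:160404754-160404775, forward strand). The control sequence comes from the study's table of biotinylated miRNAs, in which the row named miR-16 holds the control sequence and the row named miR-CTR holds that of miR-16. The labels were taken as swapped, and the transfected miR-CTR was assumed to have the same sequence as the biotinylated one.
miR-16: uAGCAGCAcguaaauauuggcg
control sequence: uUGUACUAcacaaaaguacug

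After miR-CTR transfection the median level of the 104 genes was lower at each successive time, though not every gene followed this order. At 6 h, 15 of them were above 0 h. Their median change from 0 h went from -0.31 (6 h) over -0.455 (12 h) and -0.66 (24 h) to -0.845 (48 h). With miR-16 the median stayed between -0.11 and -0.03 at all 4 times. The 470 other genes that fell with miR-CTR reached a median of -0.92 at 48 h with miR-CTR and -0.76 with miR-16, so both curves descended. The median of all 11137 genes lay between -0.04 and 0.01 at every time with either mimic. Within the 104 genes, 87 were below their 0 h value in all 4 miR-CTR libraries, a count that was not made over all genes. At 6 h, 24 of the 104 genes were already at least 0.5 below 0 h with miR-CTR (23.1%). Of the 470 other falling genes 14.3% were, and of all genes 1.92%. At 12 h 40 of the 104 were (38.5%), against 30.4% of the 470 and 2.68% of all genes. These changes share the 0 h library with the choice.

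**Figure D1:**
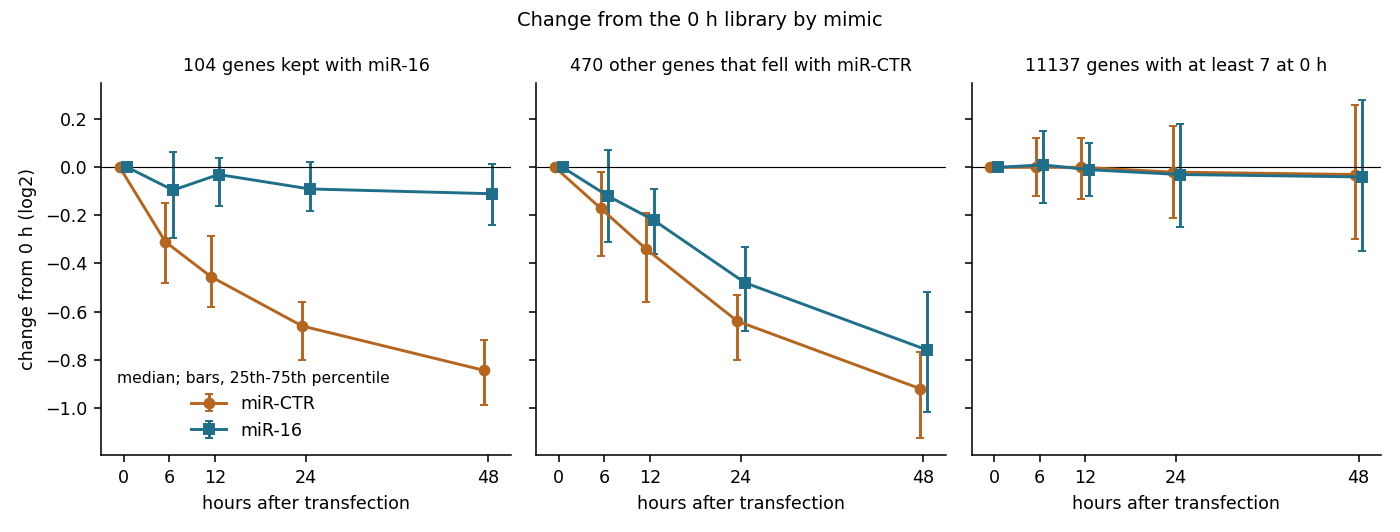
Change from the 0 h library (log2) against hours after transfection, for the 104 genes kept with miR-16 (left), the 470 other genes that fell with miR-CTR (middle) and all 11137 genes with at least 7 at 0 h (right). Points are medians over genes and bars span the 25th to 75th percentile; in the left panel miR-CTR reaches -0.845 at 48 h and miR-16 stays between -0.11 and -0.03. The 0 h, 24 h and 48 h libraries were used to choose the genes.

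The 6 and 12 h libraries took no part in the choice, so the difference between the mimics at these times is a separate readout. At 6 h, the miR-16 value was above the miR-CTR value for 91 of the 104 genes (87.5%), with a median difference of 0.18. Over all 11137 genes 50.0% were above 0, and the median was 0.01. At 12 h, 97 of the 104 genes (93.3%) were above 0 with a median of 0.40, against 48.2% and a median of 0 over all genes. The difference reached 0.5, the size the study used to call a gene, for 13 of the 104 genes at 6 h (12.5%, against 0.655% of all genes) and for 37 at 12 h (35.6%, against 1.01% of all genes). No gene of the 104 was 0.5 or more lower with miR-16 at either time. At both early times 10 of the 104 genes passed 0.5, against 0.18% of all genes. The difference exceeded 2 counting SE for 59 genes at 6 h (56.7%) and 82 at 12 h (78.8%), where 18.9% and 18.7% of all genes did. Of the 470 other genes that fell with miR-CTR, 60.2% were above 0 at 6 h and 70.6% at 12 h. Among these 470, 2.34% and 7.45% reached 0.5, and 26.8% and 45.1% exceeded 2 counting SE. A smaller shift in the same direction was thus also present in the other falling genes. Total reads were 20260000 with miR-16 and 24110000 with miR-CTR at 6 h, and 24840000 and 24100000 at 12 h.

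**Figure D2:**
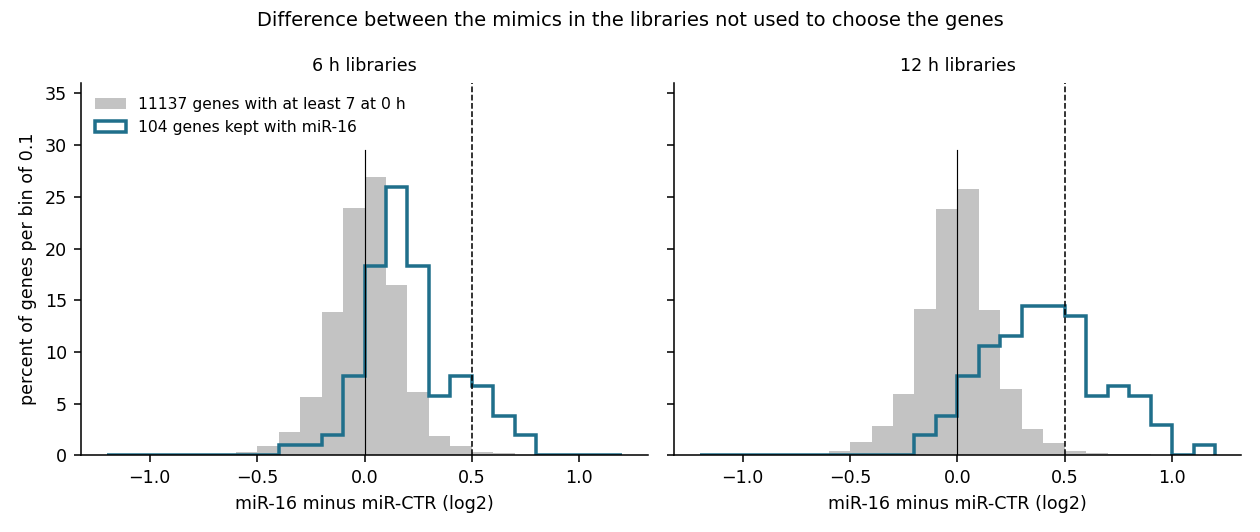
Distribution of the miR-16 minus miR-CTR difference (log2) at 6 h (left) and 12 h (right), as the percent of genes in bins of 0.1. The 104 genes (outline) have medians of 0.18 and 0.40, and all 11137 genes (grey) are centred near 0; the dashed line marks 0.5, passed by 13 and 37 of the 104 genes.

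Each late time was also read in genes chosen with the other late time alone. With 24 h alone the same conditions chose 112 genes, of which 58 are among the 104, and at 48 h these 112 genes had a median difference of 0.62. The difference was above 0 for 108 of them (96.4%, against 46.7% of all genes) and reached 0.5 for 77 (68.8%, against 6.1% of all genes). With 48 h alone they chose 137 genes, 73 of them shared, and at 24 h the median difference was 0.42. Of these 137 genes 95.6% were above 0, against 47.2% of all genes, and 57 were at 0.5 or more (41.6%, against 3.23% of all genes). Which genes were chosen thus depended on the late library used, whereas the other late library had the same direction in all but a few of either set. The single 0 h library enters both conditions: with the mean of the miR-CTR libraries at 0, 6 and 12 h as the reference, 56 genes were chosen and 20 of them were among the 104.

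All 104 genes had their miR-16 value above their miR-CTR value at 24 and at 48 h, although the conditions bound only the mean of both times, and 86 did so at all 4 times. The late difference, the mean of 24 and 48 h, had a median of 0.675 and ran from 0.36 to 2.815. For 54 of the genes the lowest miR-16 value was above the highest miR-CTR value after transfection (51.9%, against 4.02% of all genes). The choice on the 24 and 48 h values favours this order, so the gap to all genes is a description only. The difference was larger at 12 h than at 6 h for 87 genes, larger at 24 h than at 12 h for 91, and larger at 48 h than at 24 h for 73. These counts and that of the 86 genes were not made over all genes, and the 24 and 48 h values in them had chosen the genes. The expression at 0 h ran from 7.01 to 13.62 with a median of 9.89, the same median as over all 11137 genes. Of the 104 symbols, 102 were matched to the GENCODE annotation and 95 were protein-coding.

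CTGF (CCN2), a secreted matricellular protein and a well known target of the YAP cofactor, had the largest late difference. It lies on chromosome 6 from 131948176 to 131951373 (reverse strand). CTGF stood at 10.67 at 0 h, then in time order at 10.11, 9.41, 8.34 and 7.02 for miR-CTR and at 10.69, 10.51, 10.70 and 10.29 for miR-16. Each miR-16 value was above each miR-CTR value from 6 h on, with a late difference of 2.815 (SE 0.0768), 7.04-fold. At 6 and 12 h, outside the choice, it was 0.58 (SE 0.057) and 1.10 (SE 0.0651). SLC16A6, a member of the monocarboxylate transporter family, lies on chromosome 17 from 68267026 to 68291267 (reverse strand). From 13.10 at 0 h, SLC16A6 went to 12.64, 12.36, 11.75 and 11.09 after miR-CTR and to 12.89, 13.13, 12.98 and 13.10 after miR-16. The miR-CTR values fell at every step while the miR-16 values stayed within 0.21 of 0 h, and the late difference was 1.62 (SE 0.0222). Its pseudogene SLC16A6P1 followed with 1.61 (SE 0.0779), and reads of these near-identical copies may have been divided between them in the counting.

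DACT1, PRICKLE1, WWC1 and SLMAP belong with CTGF to the WNT, planar polarity and Hippo pathways, and the 5 genes had median differences of 0.22 at 6 h and 0.54 at 12 h. DACT1, a regulator of Dishevelled in WNT signalling, was one of those in which miR-CTR fell after 6 h. The DACT1 values were 10.86 at 0 h, 11.02, 10.40, 9.86 and 9.54 under miR-CTR and 11.17, 11.03, 10.93 and 11.12 under miR-16. The 6 h values were both above 0 h, and the mimics then parted to a late difference of 1.325 (SE 0.0414). PRICKLE1, a planar cell polarity protein, stood at 7.72 at 0 h, at 7.87, 7.39, 6.93 and 5.61 after miR-CTR and at 8.09, 7.62, 7.59 and 7.63 after miR-16. Its miR-CTR value at 48 h was the lowest of the 9, and the late difference of 1.34 (SE 0.139) rested mostly on that library (0.66 at 24 h and 2.02 at 48 h). WWC1 (KIBRA), an upstream activator of the Hippo kinases, and SLMAP, a component of the STRIPAK phosphatase complex that restrains them, had late differences of 0.595 (SE 0.0615) and 0.605 (SE 0.0488).

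Genes of the secretory pathway, 14 of the 104, included the pair with the highest and second highest expression at 0 h. Groups by role were formed within the 104 genes only, here and in the other paragraphs. Their sizes thus have no comparison over all genes. CALU (calumenin), a calcium-binding protein of the endoplasmic reticulum (ER), had the highest 0 h value of all 104 and ranked 189 among all genes. CALU stood at 13.62 at 0 h, then in time order at 13.12, 12.99, 12.82 and 12.73 for miR-CTR and at 13.48, 13.57, 13.42 and 13.40 for miR-16. MLEC (malectin), an ER lectin that binds glucose-bearing N-glycans, behaved alike. From 13.38 at 0 h, MLEC went to 12.76, 12.82, 12.62 and 12.65 after miR-CTR and to 13.17, 13.48, 13.33 and 13.34 after miR-16. In both genes the miR-CTR value was already at least 0.50 below 0 h at 6 h and no miR-CTR value reached any miR-16 value. Their 12 h differences were 0.58 (SE 0.02) and 0.66 (SE 0.021). EDEM3, which trims mannose from misfolded glycoproteins, and XBP1, a transcription factor of the unfolded protein response, had late differences of 0.59 (SE 0.042) and 0.46 (SE 0.034). ZDHHC20, a protein palmitoyltransferase, had the largest late difference of the group. The ZDHHC20 values were 10.45 at 0 h, 9.68, 9.58, 9.17 and 9.04 under miR-CTR and 10.26, 10.50, 10.32 and 10.23 under miR-16. It passed 0.5 at both early times (0.58 and 0.92), and its late difference was 1.17 (SE 0.0518). MINPP1, an inositol polyphosphate phosphatase of the ER lumen, stood at 8.95 with miR-CTR and 9.81 with miR-16 at 12 h, from 9.87 at 0 h. POGLUT1 and XXYLT1, which add O-glucose to Notch receptors and extend it with xylose, had late differences of 0.67 (SE 0.0804) and 0.665 (SE 0.0712). FAM20C, the kinase of secreted proteins, differed by -0.03 at 6 h and 0.45 at 12 h. Over the 14 genes the median difference was 0.265 at 6 h and 0.51 at 12 h.

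Another 14 genes serve RNA synthesis, modification and translation, with medians of 0.115 at 6 h and 0.425 at 12 h. The modifying enzymes differed little at 6 h: the pseudouridine synthases PUS7 and PUS1 by 0.05 and 0.10, TRMT6, a subunit of a tRNA methyltransferase, by -0.05, and MRM1, which methylates mitochondrial rRNA, by 0.12. At 12 h these 4 genes stood at 0.22, 0.41, 0.16 and 0.44. NUP37, a nucleoporin, MRPS14, a protein of the small mitochondrial ribosomal subunit, and POLR3E, a subunit of RNA polymerase III, had parted by 6 h. NUP37 stood at 9.61 at 0 h, then in time order at 9.20, 8.93, 8.69 and 8.65 for miR-CTR and at 9.73, 9.82, 9.80 and 9.49 for miR-16. From 9.73 at 0 h, MRPS14 went to 9.22, 9.10, 8.86 and 8.78 after miR-CTR and to 9.72, 9.84, 9.79 and 9.66 after miR-16. The early differences were 0.53 and 0.89 for NUP37 and 0.50 and 0.74 for MRPS14. The miR-16 values of NUP37 stayed within 0.21 of 0 h and those of MRPS14 within 0.11. POLR3E differed by 0.51 at 6 h and 0.59 at 12 h, and SNAPC1, which acts in snRNA transcription, by 0.11 and 0.67. TNRC6C, a scaffold protein of the microRNA silencing complex itself, had its largest difference at 6 h, 0.67 (SE 0.0765), and between 0.51 and 0.54 later.

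Among enzymes that modify proteins and chromatin, PPP1CC, a catalytic subunit of protein phosphatase 1, lies on chromosome 12 from 110719680 to 110742939 (reverse strand) and had the largest late difference. The PPP1CC values were 13.04 at 0 h, 12.38, 12.04, 11.86 and 11.98 under miR-CTR and 12.81, 12.92, 12.74 and 13.06 under miR-16. The miR-CTR fall was nearly complete by 12 h, when miR-16 stood at -0.12 from 0 h, and the late difference was 0.98 (SE 0.02). KLHL8, an adaptor of a cullin ubiquitin ligase, passed 0.5 at both early times (0.65 and 0.77). PRMT5, the main symmetric arginine methyltransferase, had a late difference of 0.545 (SE 0.0216) and KAT2A, a histone acetyltransferase, of 0.62 (SE 0.0343). At 12 h the values were smaller, 0.24 and 0.10. The lysine methyltransferase SETD7, the ubiquitin ligase NEDD4, the deubiquitinase USP38 and the kinase BRSK2 had late differences between 0.375 and 0.45. Their counting SE lay between 0.0352 and 0.143.

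In RAS, MAPK and related GTPase signalling, 12 genes had medians of 0.165 at 6 h and 0.355 at 12 h. MRAS, a GTPase of the RAS family, had lower values from 6 h on with miR-CTR. MRAS stood at 11.17 at 0 h, then in time order at 10.69, 10.53, 10.40 and 10.29 for miR-CTR and at 11.18, 11.19, 11.19 and 11.17 for miR-16. At 12 h the difference was 0.66 (SE 0.0465), and MRAS stayed within 0.02 of its 0 h value in all 4 miR-16 libraries. MAP3K2, a kinase upstream of MAPK cascades, differed by 0.54 and 0.72 at the early times. ETV1, a transcription factor induced by ERK activity, parted later, with 0.18, 0.30, 0.48 and 0.89 at the 4 times. VAV3, a guanine nucleotide exchange factor, RASGEF1A, an exchange factor for RAS, RIN1, a RAS effector, and NAB2, a corepressor of EGR proteins, had late differences of 0.71, 1.005, 0.47 and 0.48. RFTN1, a lipid raft protein at the lower limit of expression (7.01 at 0 h), was lower with miR-16 at 6 h by 0.32 (SE 0.208), the lowest value of the 104, and higher by more than 1 at 24 and 48 h.

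Extracellular matrix and cell surface genes numbered 14, with medians of 0.11 at 6 h and 0.31 at 12 h. CMTM6, a membrane protein that keeps PD-L1 at the cell surface, lost most in the first 12 h. From 10.55 at 0 h, CMTM6 went to 9.82, 9.61, 9.47 and 9.57 after miR-CTR and to 10.19, 10.53, 10.41 and 10.56 after miR-16. The difference grew from 0.37 at 6 h to 0.92 at 12 h and was 0.94 and 0.99 later. MATN2 (matrilin 2), a matrix protein, showed the other order. The MATN2 values were 12.66 at 0 h, 12.71, 12.49, 12.09 and 11.41 under miR-CTR and 12.74, 12.46, 12.33 and 12.53 under miR-16. It differed by 0.03 and -0.03 at the early times and by 1.12 at 48 h. FLRT2, an adhesion protein, and TMEM2, a cell surface hyaluronidase, reached 1.02 and 1.04 at 48 h. PLAT, the tissue plasminogen activator, and LASP1, an actin-binding adaptor of adhesion sites, had late differences of 0.515 (SE 0.0297) and 0.39 (SE 0.0208). EFNA1, an ephrin ligand, and HYAL3, a hyaluronidase, with 0 h values of 7.28 and 7.18, differed by -0.03 at 12 h.

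Metabolism and transport counted 12 genes, with medians of 0.155 and 0.325 at 6 and 12 h. PYGB, the brain isoform of glycogen phosphorylase, lies on chromosome 20 from 25248069 to 25298014 (forward strand). PYGB stood at 13.26 at 0 h, then in time order at 13.17, 12.95, 12.58 and 12.48 for miR-CTR and at 13.38, 13.36, 13.45 and 13.53 for miR-16. Its miR-16 values were above 0 h in all 4 libraries and its miR-CTR values below it, so that 0.23 of the late difference of 0.96 (SE 0.0162) was a rise with miR-16. WDFY1, an endosomal FYVE-domain protein, had the largest early mean after CTGF. From 11.69 at 0 h, WDFY1 went to 11.00, 10.79, 10.61 and 10.66 after miR-CTR and to 11.68, 11.73, 11.70 and 11.86 after miR-16. The early differences were 0.68 and 0.94, and all miR-16 values lay within 0.17 of 0 h. SRM, spermidine synthase, was at the lower edge of the band (-0.25 with miR-16), with a late difference of 0.365 (SE 0.0275). SLC6A17, a vesicular amino acid transporter, had 1.34 (SE 0.103), of which most came at 48 h (1.76, against 0.92 at 24 h). SLC5A3, the myo-inositol transporter, DRAM1, a lysosomal membrane protein induced by p53, and ABCB5, a drug efflux transporter found in melanoma, had late differences of 0.875, 0.97 and 0.76. NDRG1, a stress-responsive gene, differed by -0.13 at 6 h.

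A group of 8 genes known from neural or developmental tissue had medians of 0.065 at 6 h and 0.435 at 12 h. NDN (necdin), a maternally imprinted growth suppressor, fell early. The NDN values were 10.34 at 0 h, 9.83, 9.51, 9.17 and 9.23 under miR-CTR and 10.26, 10.33, 10.39 and 10.47 under miR-16. Its early differences were 0.43 and 0.82. POU3F2 (BRN2), a transcription factor of neural and melanocyte lineages, had early differences of 0.01 (6 h) and 0.43 (12 h) and reached 1.55 by 48 h. NAV3, a microtubule-binding protein of neuronal cells, stood at 7.31 at 0 h, at 7.68, 6.71, 6.00 and 4.95 after miR-CTR and at 7.75, 7.32, 7.39 and 6.75 after miR-16. Its late difference was 1.595 (SE 0.179), the widest counting SE of the 104. TMEM178B had a difference of -0.23 at 6 h and of 1.94 at 48 h, where its miR-CTR value was 6.51, from 8.17 at 24 h. TUB, a tubby-family protein, had 0.06, 0.27, 0.54 and 1.06 at the 4 times. BNC2, a zinc finger protein of pigmentation and fibroblast biology, had its largest value at 24 h (0.57) and 0.51 already at 6 h.

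**Figure D3:**
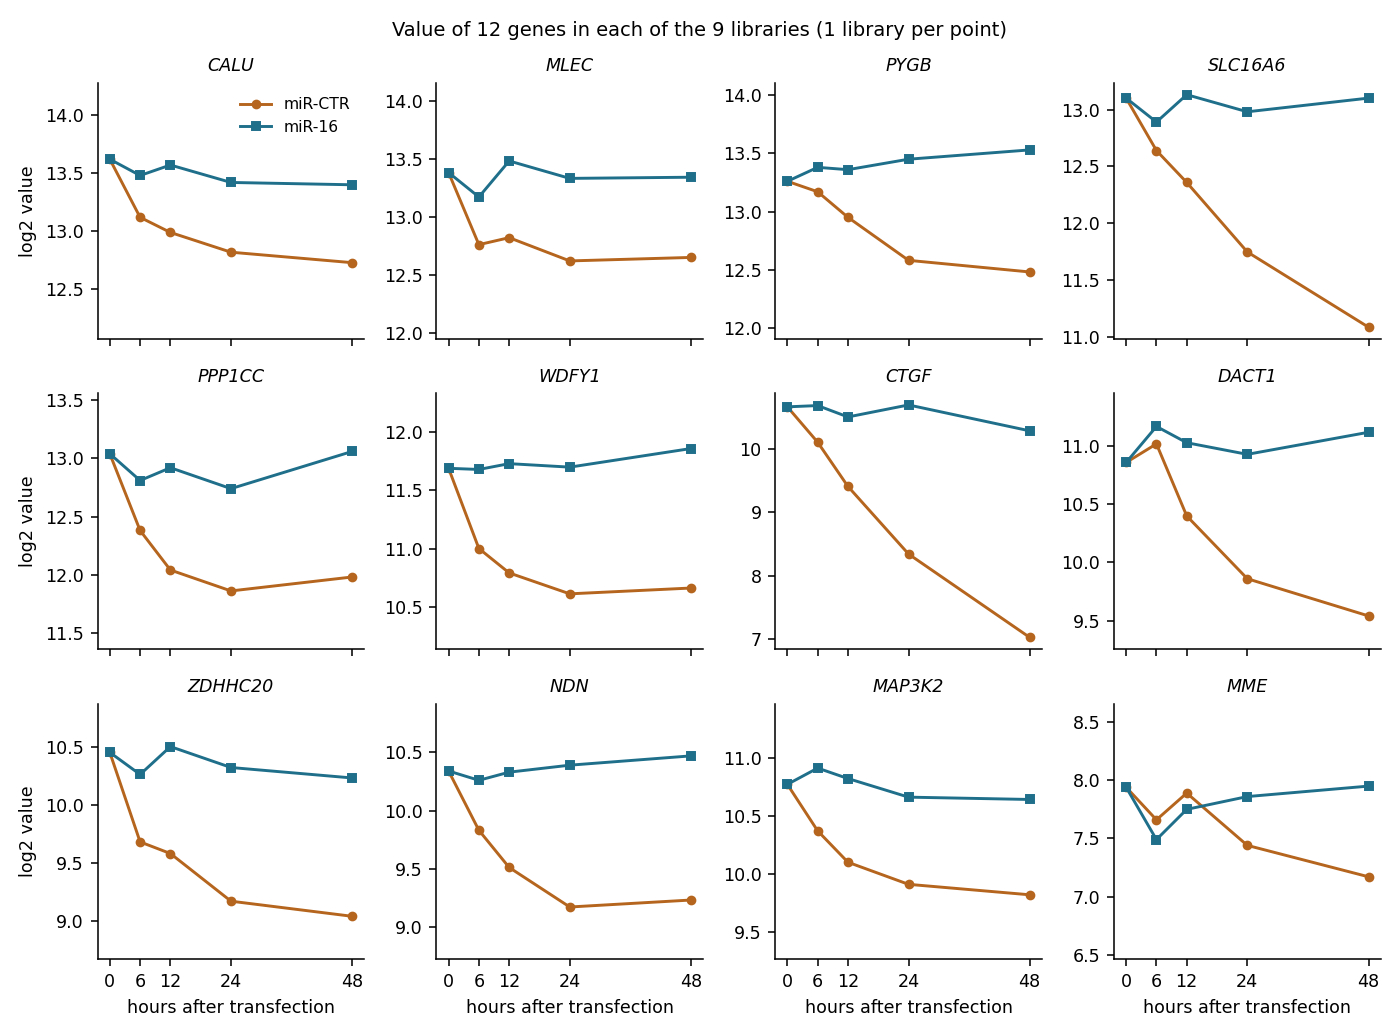
Deposited log2 value of 12 of the 104 genes against hours after transfection, 1 library per point, with the 0 h library shared by both lines; the y axes differ between panels and span at least 2.2. CTGF falls to 7.02 at 48 h with miR-CTR and is at 10.29 with miR-16, whereas MME is lower with miR-16 at 6 and 12 h and higher at 24 and 48 h.

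The 9 genes without an annotated 3′UTR were pseudogenes, long non-coding RNAs and unmatched symbols. Of these, 3 passed 0.5 at 6 h and 4 at 12 h. The largest early mean of these was that of RP11-290D2.6, whose symbol was not matched. RP11-290D2.6 stood at 8.15 at 0 h, then in time order at 7.06, 7.01, 7.78 and 6.72 for miR-CTR and at 7.78, 7.57, 7.92 and 8.19 for miR-16. Its miR-CTR values did not fall in order, since that of 24 h was above those of 6 and 12 h. HSPD1P5, HSPA8P5 and FAM3C2 are copies of protein-coding genes, so their values are uncertain in the same way as that of SLC16A6P1. Another 8 protein-coding genes fitted none of these groups, and their late differences lay between 0.425 (TTC33) and 0.965 (ANKRD16). DFNA5 (GSDME), a pore-forming gasdermin, was the most expressed of them, with 12.26 at 0 h and a late difference of 0.64 (SE 0.023).

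Of the 22 pathway lists, 9 held none of the 104 genes, 11 held 1 and 2 held 3. The list of ER translocon, glycosylation and folding had 102 measured genes with at least 7 at 0 h, of which 14 (13.7%) fell by 0.6 or more with miR-CTR and 3 were kept with miR-16 (MLEC, CALU, EDEM3). Ribosome biogenesis factors had 130, of which 30 (23.1%) fell with miR-CTR and 3 were kept (UTP14A, PUS7, PUS1). Over all genes these shares were 5.15% and 0.934%, and the medians of the late difference were 0.0475 and 0.0925 in the lists and -0.015 overall. The lists with 1 gene included glycogen and glycolysis (PYGB), Golgi transport (SFT2D2), arginine methyltransferases (PRMT5), ERK feedback (ETV1), actin and adhesion (LASP1), mitochondrial ribosome (MRPS14), ATF4 and unfolded protein response (XBP1), lysosome (DRAM1), chromatin (KAT2A), and pigmentation (ABCB5). They had 21 to 97 genes with at least 7 at 0 h, of which 1 gene was 4.76% to 1.03%. None of the 78 cytosolic ribosomal proteins, 50 DNA replication genes or 61 mitosis genes was among the 104, nor was any gene of the lists of GPI anchor synthesis, translation factors, sterol synthesis, p53 targets, heat shock proteins and interferon response. With a share of 0.934% over all genes, 1 gene or none in lists of these sizes is no result about a pathway. Of the 57 candidate miR-16 sponges of the study, 12 were among the 104 (21.1%): PYGB, PRMT5, TMEM64, MRAS, KAT2A, DACT1, NETO2, ZDHHC20, NDN, PUS7, TUB and NDRG1. The study picked that list as rising with miR-16 over miR-CTR in these libraries. It also required reads in a pull-down with biotinylated miR-16 and a high basal expression. RNAs with many reads in the pull-down with biotinylated miR-CTR were removed by the study. Since the rise comes from the same libraries that chose the 104 genes, this overlap is no independent evidence.

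The rule used no sequence, and the 3′UTRs of the kept genes were searched for matches to the seeds of both mimics. Counted were TAGTACAA (8mer), TAGTACA (7mer-m8) and AGTACAA (7mer-A1) for the control sequence and TGCTGCTA, TGCTGCT and GCTGCTA for miR-16, on the transcript strand of the longest annotated 3′UTR, where each 8mer also holds both 7mers. A control match was present in 40 of 95 kept genes (42.1%), 136 of 425 other genes that fell with miR-CTR (32.0%) and 1555 of 10185 of all genes (15.3%). For miR-16 the shares were 26.3%, 27.8% and 30.1%. An 8mer for the control sequence was found in 8 of the 95 genes (8.42%, against 5.88% and 2.29%), and 15 of the 95 had 2 or more control matches, as did 36 of the 425 and 286 of the 10185. The density of control matches per kilobase of 3′UTR was 0.226 in the kept genes, 0.194 in the other falling genes and 0.0887 in all genes. The kept genes also had longer 3′UTRs (median 1718 bases, against 1475 for all genes) with more A and T (61.8% against 57.7%). The control share was higher, 54.7%, in the 64 kept genes with a 3′UTR and at least 9 at 0 h. The part of length, composition and expression in these shares was not tested. In the shortest annotated 3′UTR the control shares were 18.9% for the kept genes and 5.27% for all genes. Seen from the sites, 40 of 1555 genes with a control match were kept genes (2.57%), and 55 of 8630 without one (0.637%).

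**Figure D4:**
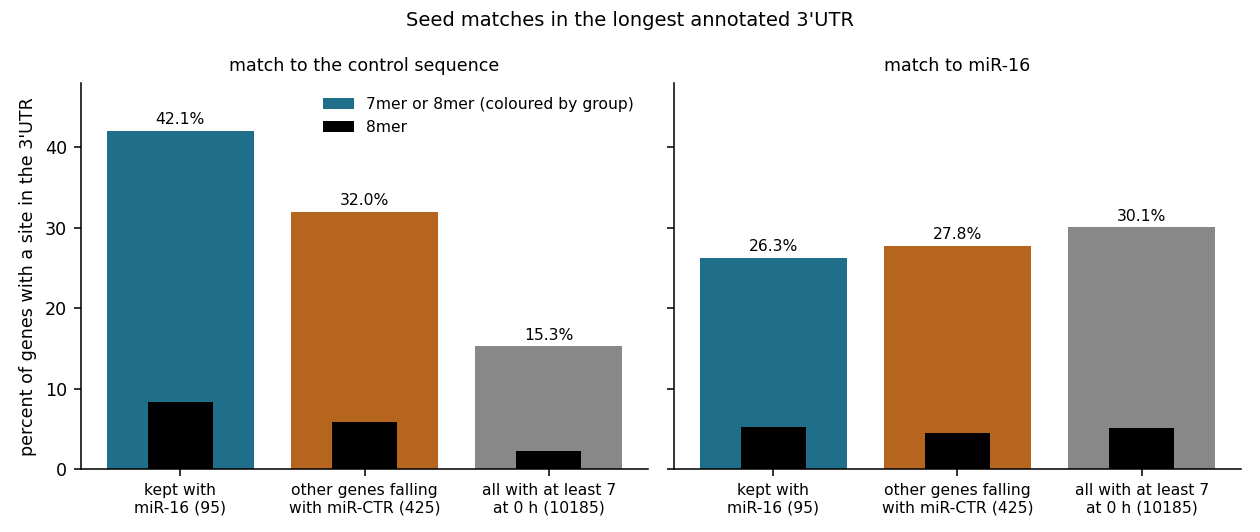
Percent of genes with a seed match in the longest annotated 3′UTR, for the control sequence (left) and miR-16 (right); wide bars count any 7mer or 8mer and narrow black bars the 8mer alone, with the number of genes under each bar. For the control sequence the wide bars stand at 42.1, 32.0 and 15.3%, and for miR-16 at 26.3, 27.8 and 30.1%.

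The 8mer matches are shown for 5 of the 8 genes that have one, with 7mer matches of highly expressed or early differing genes, as read from GENCODE 29 transcripts on GRCh38. The match is in capitals with up to 9 bases on each side, and the positions are those of the match.
AGGF1 (8mer, chr5:77064005-77064012, forward strand): tctgatttcTAGTACAAaaggaatac
MAP3K2 (8mer, chr2:127307281-127307288, reverse strand): cactcttttTAGTACAAacaaatcat
TUB (8mer, chr11:8102762-8102769, forward strand): ttaggaatcTAGTACAAccttgttgc
MRPS14 (8mer, chr1:175014436-175014443, reverse strand): tcccatacaTAGTACAAagagtagca
POGLUT1 (8mer, chr3:119492837-119492844, forward strand): atttggaagTAGTACAActcattgct
CALU (7mer-m8, chr7:128769367-128769373, forward strand): aactctaatTAGTACActtgtgttt
MLEC (7mer-m8, chr12:120700539-120700545, forward strand): gcaaagtgaTAGTACAcggaagcag
PPP1CC (7mer-A1, chr12:110720750-110720756, reverse strand): ttttaattcAGTACAAcccataatc
WDFY1 (7mer-m8, chr2:223875503-223875509, reverse strand): aatgttaatTAGTACActttgttct
NUP37 (7mer-m8, chr12:102074308-102074314, reverse strand): ttgtattttTAGTACAtattttgaa
CTGF (7mer-m8, chr6:131949032-131949038, reverse strand): gaactacatTAGTACAcagcaccag
ZDHHC20 (7mer-m8, chr13:21374779-21374785, reverse strand): gtcatttccTAGTACAgcataaatt
MAP3K2 has 3 8mers and a 7mer-m8 in a 3′UTR of 8849 bases, of which the one nearest the stop codon among the 8mers is shown. NUP37 has a pair of 7mer-m8 matches that start at bases 40 and 65 of its 3′UTR, and the first is shown. A match is a sequence of letters and does not show that the control mimic bound there. SLC16A6, DACT1 and NDN, with late differences of 1.62, 1.325 and 1.23, had no 7mer or 8mer but did hold the 6mer AGTACA (1, 1 and 2 matches). SLC6A17, with a late difference of 1.34, held no control match of any of these kinds, the 6mer included. At 12 h the 20 kept genes with a 6mer only had a median difference of 0.385, and the 35 with neither had 0.17.

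In the 6 and 12 h libraries, which the rule did not use, the kept genes with a control match had parted further. The median difference at 6 h was 0.29 in the 40 genes with a match and 0.10 in the 55 without, and at 12 h it was 0.575 and 0.26. At 12 h the difference reached 0.5 in 27 of the 40 (67.5%) and in 6 of the 55 (10.9%). At 6 h, 10 of the 40 reached it and none of the 55, and the 3 others of the 13 had no 3′UTR. At 24 h the medians were 0.69 and 0.54 and at 48 h 0.785 and 0.73, times at which both sets had been chosen for their values. Over all genes the share past 0.5 at 6 h was 1.35% with a match and 0.0695% without. With so low a share without a match, none of the 55 at 6 h is no result by itself. At 12 h the share over all genes was 4.5% with a match and 0.324% without. Among the other falling genes 5.88% with a match and none without passed 0.5 at 6 h. At 12 h 19.9% of the other falling genes with a match did, and 2.42% of those without. Their median differences with and without a match were 0.115 and 0.01 at 6 h and 0.27 and 0.07 at 12 h. A gap in this direction was thus not particular to the kept genes. With miR-CTR the kept genes with a match had a median of -0.42 from 0 h at 6 h and those without -0.23, while with miR-16 the medians of both sets lay between -0.15 and 0.005 at 6 and 12 h. The 8 genes with an 8mer had medians of 0.19 and 0.415 at 6 and 12 h and the 32 with only 7mers 0.295 and 0.585, so the longer match did not go with the larger difference in this small set. The order was the opposite at 12 h in the other falling genes, with medians of 0.46 (8mer) and 0.26 (7mer only), and in all genes, with 0.12 and 0.06. Of the 10 genes past 0.5 at both early times, 9 had a control match. Kept genes with a match were also more often highly expressed: 54.7% of the 64 with at least 9 at 0 h had one, against 42.1% of all 95. The part of expression in these gaps was not tested. Without replicates, whether the gaps exceed the variation between cultures is not known.

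**Figure D5:**
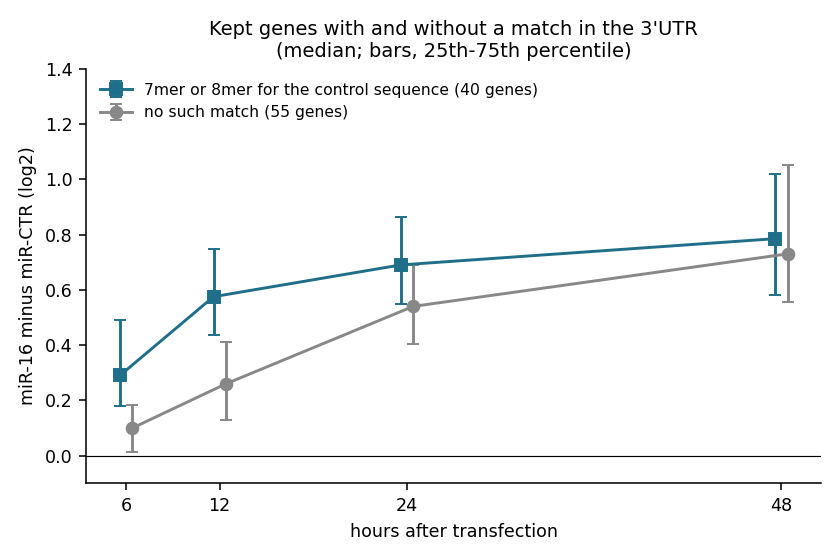
Median miR-16 minus miR-CTR difference (log2) of kept genes with a control match in the 3′UTR (40 genes) and without one (55 genes) against hours after transfection; bars span the 25th to 75th percentile over genes. At 12 h the medians are 0.575 and 0.26, and at 48 h 0.785 and 0.73; the 24 and 48 h values were used to choose the genes.

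The limits on the fall with miR-CTR and on the miR-16 band separated genes by single hundredths or less, and that on the 0 h level by more. On the fall with miR-CTR, UTP14A was inside at -0.60 and USP5 and CCDC101 outside at -0.595. At the lower edge of the miR-16 band, SRM (-0.25) and DUXAP10 (-0.245) were inside and SP4 and RASSF2 (-0.255 both) outside. At the upper edge, RASGEF1A (0.24) and PYGB (0.23) were inside and KIAA1147 (0.255) and TMEM106B (0.265) outside. On the 0 h level, HCG20 and RFTN1 were inside at 7.01 and RN7SL5P (6.90) and CAMKK1 (6.89) outside. The late counting SE of the 104 genes ran from 0.0155 to 0.179.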

How the data were processed

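RNA sequencing of polyA RNA was performed on 9 libraries of MP41 cells (0 h, and 6, 12, 24 and 48 h after 66 nM miR-16 or miR-CTR, 1 library each). The submitters' processing notes name FastQC, STAR 2.4.0a, featureCounts of Subread 1.5.0-p3 and the build hg38/GRCh38. The authors deposited normalized log2 values with 2 decimals and a decimal comma; filters on low expression are not given in the sources used here. The unit of the deposited values was checked on the values: below 5, 100% of those of each library became, once unlogged and less 1, whole multiples of a library-specific step (within the rounding), as in log2(reads / size factor + 1). Time points are numbered in the table, and the numbers were taken to follow the labelled times in order. No per-sample column was left unused.

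The 104 genes were selected on the 0, 24 and 48 h values. The genes, the pathway lists and the role groups were chosen with earlier results of these data known, and the role groups after the values were seen. No test was run, since each condition has 1 library. Differences are miR-16 minus miR-CTR at the same time, and the counting SE comes from the recovered reads. Of the 14839 symbols, 13519 (91.1%) were matched to GENCODE 29 on GRCh38, 536 of them by an older symbol. Seed matches were exact, and each gene was represented by its longest annotated 3′UTR. The genes named were the 10 most expressed, the 10 with the largest late difference and the 10 with the largest early mean, those on a pathway list or among the study's candidate sponges (up to 6 per list), those with an 8mer, and the 2 nearest to each limit on either side. Others were named after their values were seen, and some genes of this rule are not reported here. The rule, the recovery of reads and the search for matches were tested on simulated data. Scripts ran under Python 3.11.15 with numpy 2.4.6, pandas 2.3.3 and scipy 1.17.1, and figures were drawn by matplotlib 3.10.9.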

Additional observations from a re-analysis of the deposited data

Results flagged for a closer look

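MME (neprilysin), a cell surface peptidase, stood out because the sign of the difference between the mimics was opposite in the early and the late libraries. MME was lower with miR-16 by a mean of -0.155 at 6 and 12 h (-0.17 with a counting SE of 0.153 at 6 h, and -0.14 with 0.132 at 12 h) and higher by 0.42 at 24 h and 0.78 at 48 h. It was the only one of the 104 genes below miR-CTR at both early times. The change of sign was not tested, since each time has 1 library per mimic, and both early values lie within 2 counting SE of 0. Its 3′UTR has 1 8mer for the control sequence.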

How the results depend on the processing

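The number of genes depended on the limits. It was 56 with the mean of the miR-CTR 0, 6 and 12 h libraries as the reference, 211 with no minimum at 0 h, 195 with a fall of 0.5, 41 with a fall of 0.8, 58 with a band of 0.15 and 164 with a band of 0.35. It lay between 89 and 137 under the other alternatives, which were a pseudocount of 16, quantile normalization, libraries centred on their median, 24 h or 48 h alone and a minimum of 8. At 12 h the median difference was 0.27 in the 137 genes chosen with 48 h alone. The other medians at 6 and 12 h kept their direction, and the raw counts past 0.5 stayed within 1.5 times. The sets behind these counts differed in size, so this does not hold for shares. At 12 h it was 37 of 104 genes as reported, 30 of the 137 chosen with 48 h alone and 30 of the 65 with at least 9 at 0 h. The share with a control match was 8.42% with 8mers alone (2.29% of all genes), 63.2% with 6mers counted too (30.0%), 18.9% in the shortest 3′UTR (5.27%) and 54.7% in the 64 genes with at least 9 at 0 h and a 3′UTR. For miR-16 it was 5.26% (5.14% of all genes), 44.2% (47.9%) and 7.37% (12.4%) under the first 3 of these. The control share of 54.7% was not computed over all genes at that level, so it has no comparison. The late differences of the 50 named genes were chosen to be positive, so their sign tells nothing of stability. Their 150 values under another normalization stayed inside the 95% counting interval of the main value, as did 48 of the 100 values at 24 h or 48 h alone. The causes were not tested. The labels give no replicate numbers, and no fit with the times as pairs was run.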
